A study of Homo sapiens with 9 samples.

Results

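SKNO-1 cells that carried the ASXL2 short hairpin RNA labelled SH2 were compared with the control cells labelled EV, 3 samples of each, out of the 9 RNA samples of SKNO-1 in the series. The samples were chosen by their titles alone, and every gene with enough reads was described, so no measured value entered the choice. SKNO-1 is a human acute myeloid leukaemia line with the RUNX1-RUNX1T1 (AML1-ETO) fusion, grown in medium with GM-CSF according to the methods of the study, and both groups carry the fusion. EV is not spelled out in the labels, and which vector the control cells received cannot be settled from them, since the study itself speaks of shControl. The extraction text on these samples speaks of sorted mouse-type marrow fractions, whereas the source and cell line fields name SKNO-1. Titles number the samples 1, 13 and 25 in each group, without saying what the numbers mean. The remaining 3 samples carried a second hairpin, SH3, against the same gene.

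ASXL2 belongs to a family of chromatin proteins related to the fruit fly Polycomb and Trithorax regulator Additional sex combs. It binds the deubiquitinase BAP1, which removes ubiquitin from histone H2A, and it is 1 of the genes mutated in leukaemias with the RUNX1-RUNX1T1 fusion. In such leukaemias the fusion protein sits at RUNX1 sites and recruits corepressors, and blood cell maturation stalls at an early myeloid stage.

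With 1 transcript per gene symbol, the 6 libraries held 28366622 to 35406063 counts. The samples were compared in pairs of the same number, a pairing set beforehand. The 3 same-numbered pairs of SH2 and EV samples deviated together, with correlations of 0.681, 0.400 and 0.681. Levels below are CPM, that is, counts scaled to the TMM-adjusted size of each library. Along the first principal component of all 9 samples (52.9% of the variance) the samples numbered 1 stood apart from the others. The SH3 sample numbered 1 lay farthest out, at -58.6, against -24.9 for EV and -21.2 for SH2. The samples numbered 13 and 25 lay between 4.84 and 25.0. The cells kept a myeloid profile in both groups: MPO, the peroxidase of neutrophil granules, averaged 8254 CPM in EV and 8399 CPM in SH2, and KIT, the stem cell factor receptor, 356 and 319 CPM. Among markers of other cells, 7 of 24 B-lineage genes, 5 of 29 T and NK genes, 5 of 21 stromal, endothelial and epithelial genes, 3 of 24 megakaryocyte genes and 1 of 13 mast cell genes (IL3RA) had no count in any of the 6 libraries. Of the mast cell list 9 genes, and of the megakaryocyte list 13, had enough counts to be tested. The defining markers CD3E, CD3G, MS4A1, EBF1, EPCAM and CDH5 were among the genes at 0. Other members of these lists were abundant, such as CD4 at a mean of 489 CPM in EV and 463 CPM in SH2, IGLL1 at 207 and 250 CPM, CD24 at 139 and 122 CPM and ITGA2B at 104 and 64.4 CPM. The summed level ranged from 572 to 592 CPM in EV and 548 to 670 CPM in SH2 for the B-lineage list, from 431 to 563 and 396 to 587 CPM for the T and NK list, and from 12.2 to 17.01 and 9.6 to 14.8 CPM for the stromal list. In bulk RNA, fewer cells with a transcript and less of it per cell cannot be told apart.

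The first question was whether the hairpin lowered its target. ASXL2 (NM_018263; chromosome 2, 25956622 to 26101356, minus strand, GRCh37) stood at 67.9, 67.9 and 74.7 CPM in the EV samples numbered 1, 13 and 25. In SH2 it stood at 30.4, 36.2 and 36.2 CPM, and the groups did not overlap. SH2 samples therefore held 48.9% ± 4.26 (SD, n = 3 pairs) of the paired control level. The log2 fold change was -1.04 with a standard error of 0.10 and an adjusted p of 0.0047 in edgeR's quasi-likelihood test, fitted over all 9 samples with the sample number as a block. A two-sided exact permutation test of 3 against 3 gave p = 0.1, the smallest value that 20 splits allow. The exact permutation test within pairs, which follows the pairing, gave p = 0.25, the smallest that 8 splits allow, so neither can reach the threshold. Under SH3 ASXL2 stood at 26.9, 29.1 and 41.1 CPM, and the difference between the hairpins was -0.10 ± 0.10 on the log2 scale (SE, adjusted p = 0.71).

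The closest partners of ASXL2 were measured next. ASXL1, its paralogue, stood at 157, 149 and 141 CPM in EV and 136, 141 and 128 CPM in SH2, groups that did not overlap by a narrow margin, with a log2 fold change of -0.14 ± 0.07 (SE, adjusted p = 0.31). After correction for length and GC content the ASXL1 estimate was 0.01. BAP1 stood at 154, 164 and 179 CPM in EV and 156, 173 and 176 CPM in SH2, a log2 fold change of 0.02 ± 0.07 (adjusted p = 0.90). RUNX1 (-0.19 ± 0.08, adjusted p = 0.25), RUNX1T1 (-0.15 ± 0.08, adjusted p = 0.35) and TET2 (-0.27 ± 0.09, adjusted p = 0.16) did not pass either. Reads on RUNX1 and RUNX1T1 come from the fusion and from the whole genes together.

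Of 14199 genes tested, 40 passed an adjusted p of 0.05, which is 0.282% of them. Of these, 14 rose in SH2 (0.0986% of the tested genes) and 26 fell (0.183%). All 40 lay on the same side in all 3 pairs, and in 37 of them the SH2 and EV samples did not overlap. Among all tested genes, the 3 SH2 samples lay above the 3 EV samples in 7.15% and below them in 7.8%. The changes were modest, between 0.51 and 0.97 on the log2 scale for the rises and between -0.42 and -1.04 for the falls.

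**Figure D1:**
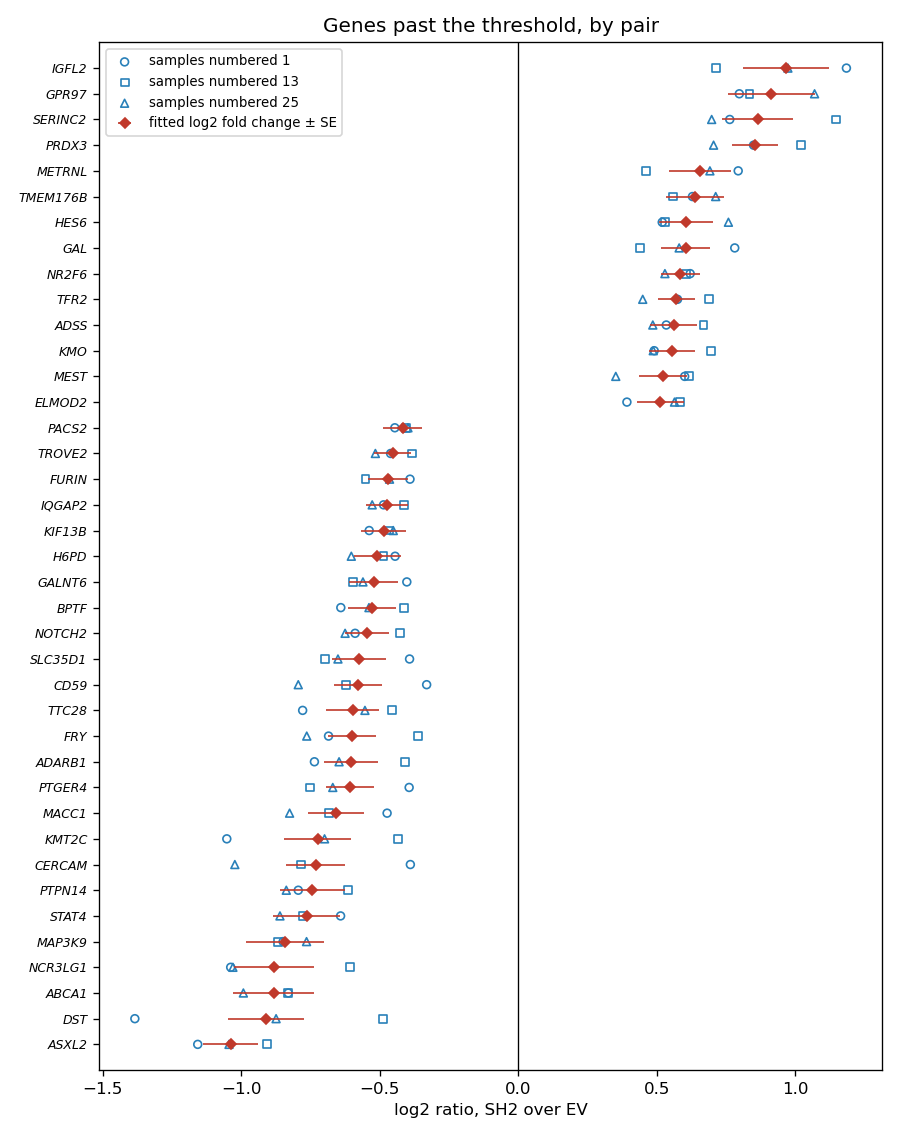
Log2 ratio of SH2 over EV (x axis) for the genes past the threshold (y axis), all but 1 of the 40. Open symbols are the 3 same-numbered pairs, red diamonds the fitted log2 fold change with its standard error. Every open symbol of a gene lies on the same side of 0, from ASXL2 at -1.04 to IGFL2 at 0.97.

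This count depended on the samples that shared the fit. Without the block no gene passed, although 762 genes had an unadjusted p under 0.05, against 2656 with it. When SH2 and EV alone were fitted, with the same block, 2097 of 13989 genes passed: 929 rose (6.64%) and 1168 fell (8.35%), and all 40 genes were among them. That fit has 2 residual degrees of freedom and a biological coefficient of variation of 0.0567, against 4 and 0.0875 over the 9 samples. Below, the fit of SH2 and EV alone is called the 6-sample fit, and the 40 genes above are those of the 9-sample fit. Groups of genes are described by both, because nearly all lists hold at most 1 gene that passed in the 9-sample fit. List sizes count the genes that could be tested, list medians are those of the 9-sample fit, and counts of rises and falls those of the fit named beside them. Leaving out the samples numbered 1, 13 or 25 from the 6-sample fit left 1369, 2036 and 780 genes, of 13974, 14061 and 14090 tested. Among the genes also tested in the 9-sample fit, 470, 859 and 249 rose and 899, 1175 and 531 fell. The counts per list without each pair are to be read beside these.

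The rises with the smallest p values were in genes of mitochondrial redox defence, iron sensing and nuclear receptors. PRDX3, the peroxiredoxin that removes hydrogen peroxide inside mitochondria, stood at 92.3, 82.4 and 116.5 CPM in EV and 166, 167 and 190 CPM in SH2. Every SH2 sample thus lay well above every EV sample, and the pairs held 182% ± 20.01 (SD, n = 3) of the control level (log2 fold change 0.86 ± 0.08 SE, adjusted p = 0.0047). TFR2, the second transferrin receptor, which takes part in iron sensing, stood at 80.6, 67.5 and 74.5 CPM in EV and 120, 109 and 102 CPM in SH2. Its log2 fold change was 0.57 ± 0.07 (adjusted p = 0.017). NR2F6, an orphan nuclear receptor that represses transcription, stood at 33.3, 30.6 and 39.7 CPM in EV and 51.3, 46.5 and 57.4 CPM in SH2, a log2 fold change of 0.59 ± 0.07 (adjusted p = 0.017). These 3 genes were also higher under SH3, by 0.76, 0.37 and 0.47 on the log2 scale; both hairpins are measured against the same 3 EV samples.

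Metabolic enzymes made up another part of the rises. KMO, kynurenine monooxygenase of tryptophan breakdown, stood at 19.3, 12.1 and 17.6 CPM in EV and 27.1, 19.7 and 24.7 CPM in SH2 (0.55 ± 0.08). ADSS, adenylosuccinate synthase of purine synthesis, stood at 119.7, 104.1 and 138.7 CPM in EV and 173, 166 and 194 CPM in SH2 (0.56 ± 0.09). In both genes the lowest SH2 sample lay above the highest EV sample. MEST, an imprinted gene expressed from the paternal copy, averaged 199 ± 25.3 CPM in EV and 285 ± 9.42 CPM in SH2 (SD, n = 3; 0.52 ± 0.09). All 3 had an adjusted p of 0.043, as did 35 of the 40 genes, because the Benjamini-Hochberg method gives genes of neighbouring rank the same value.

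Secreted and surface proteins made up most of the remaining rises. GAL, the neuropeptide galanin, stood at 52.6, 75.4 and 80.7 CPM in EV and 90.4, 102 and 121 CPM in SH2 (0.60 ± 0.09). METRNL, a secreted meteorin-like protein, averaged 8.97 and 14.3 CPM (0.66 ± 0.11), and IGFL2, of a family of growth factor-like peptides, 3.31 and 6.44 CPM (0.97 ± 0.16). SERINC2, of a family of membrane proteins linked to serine lipids, averaged 26.6 and 49.4 CPM (0.86 ± 0.13). TMEM176B, a membrane protein of myeloid antigen-presenting cells, stood at 20.1, 19.2 and 18.3 CPM in EV and 31.2, 28.3 and 30.1 CPM in SH2 (0.64 ± 0.10). GPR97, an adhesion receptor of granulocytes, was low, at 1.98 ± 0.47 CPM in EV and 3.72 ± 0.56 CPM in SH2 (0.91 ± 0.16, adjusted p = 0.045). HES6, a helix-loop-helix factor that counters HES proteins, averaged 10.5 and 16.0 CPM (0.61 ± 0.10), and ELMOD2, a GTPase-activating protein for small ARF-like GTPases, 23.6 and 33.7 CPM (0.51 ± 0.08).

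**Figure D2:**
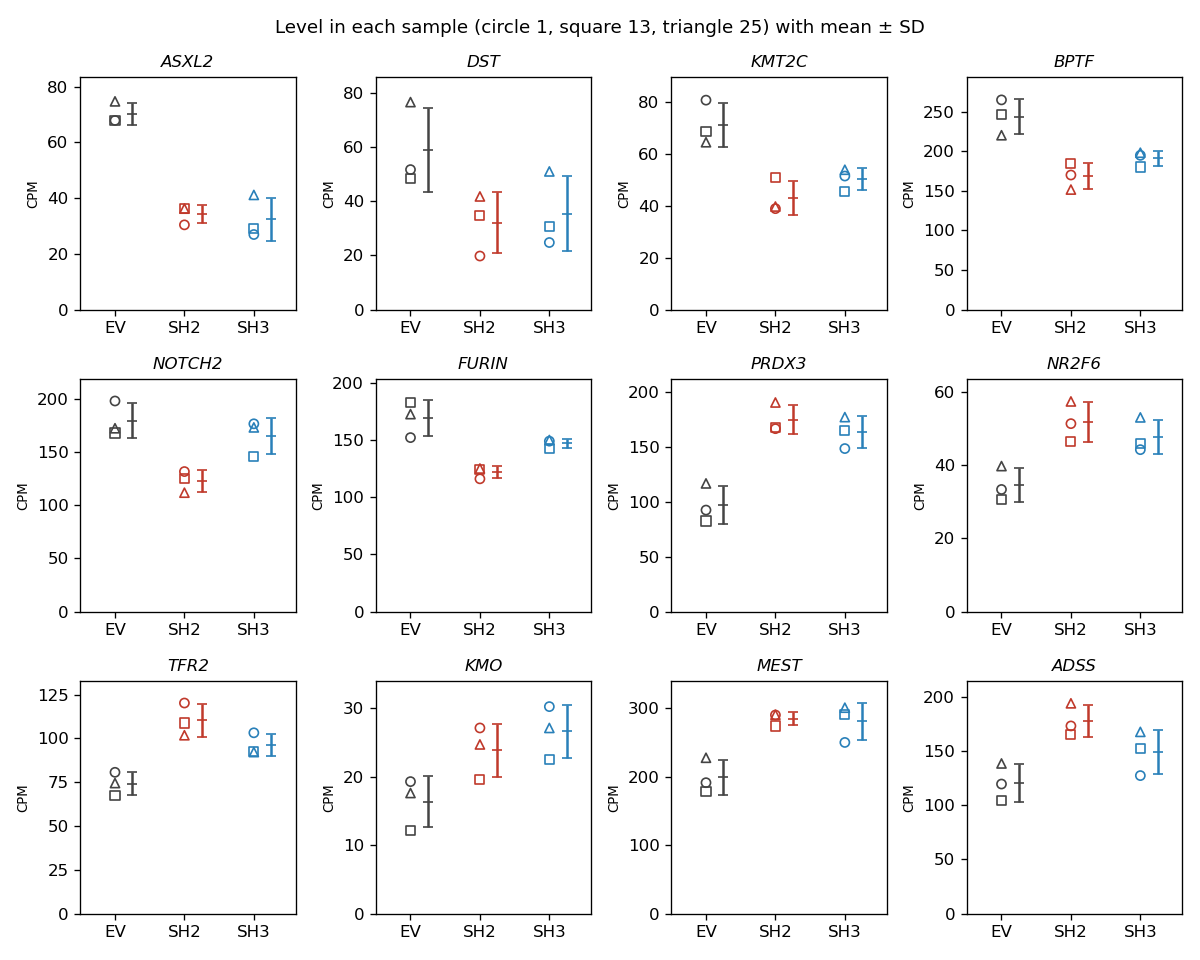
CPM (y axis, linear from 0) of 12 of the 40 genes in each EV, SH2 and SH3 sample. Symbols mark the sample number, and the bar beside them is the mean with its SD over 3 samples. PRDX3 stands at 82.4 to 116.5 CPM in EV and 166 to 190 CPM in SH2, and NOTCH2 at 168 to 198 and 112 to 132 CPM.

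Among the falls, 2 were large chromatin proteins. KMT2C, a methyltransferase that places methyl marks on histone H3 lysine 4 at enhancers, stood at 80.8, 68.7 and 64.5 CPM in EV and 38.9, 50.8 and 39.7 CPM in SH2 (log2 fold change -0.72 ± 0.12 SE). BPTF, the largest subunit of the NURF remodelling complex, stood at 265, 246 and 220 CPM in EV and 170, 185 and 152 CPM in SH2 (-0.53 ± 0.09). The groups did not overlap in either gene. Parts of KMT2C have near-identical copies elsewhere in the genome, so its counts are less certain. ADARB1, an enzyme that edits adenosines in RNA, averaged 23.3 and 15.3 CPM (-0.60 ± 0.10).

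Receptors, kinases and other signalling proteins were among the falls. NOTCH2, a receptor of the Notch pathway, stood at 198, 168 and 173 CPM in EV and 132, 125 and 112 CPM in SH2 (-0.55 ± 0.08), and its near-identical partial copy NOTCH2NL, with which it can share reads, averaged -0.20 ± 0.09 on the log2 scale (adjusted p = 0.26). FURIN, the protease that cuts Notch receptors and many other precursors, stood at 152, 182 and 172 CPM in EV and 116, 124 and 125 CPM in SH2 (-0.47 ± 0.07). STAT4, a transcription factor activated by interleukins, stood at 23.4, 25.7 and 20.4 CPM in EV and 15, 14.98 and 11.2 CPM in SH2 (-0.76 ± 0.12). All 3 genes were lower in every SH2 sample than in any EV sample. PTPN14, a tyrosine phosphatase linked to the Hippo pathway, averaged 52.7 and 31.5 CPM (-0.74 ± 0.12), and MAP3K9, a kinase upstream of JNK, 4.73 and 2.65 CPM (-0.84 ± 0.14). PTGER4, a receptor for prostaglandin E2, stood at 49.2, 43.98 and 37.3 CPM in EV and 37.4, 26.1 and 23.4 CPM in SH2 (-0.61 ± 0.09), where the SH2 sample numbered 1 reached the EV sample numbered 25.

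Further falls were in genes of various roles. ABCA1, which exports cholesterol from the cell, stood at 9.16, 13.2 and 9.30 CPM in EV and 5.12, 7.40 and 4.64 CPM in SH2 (-0.88 ± 0.15). NCR3LG1, a surface ligand of the natural killer cell receptor NKp30, stood at 47.2, 39.2 and 46.3 CPM in EV and 22.9, 25.7 and 22.6 CPM in SH2 (-0.88 ± 0.14), close to the size of the ASXL2 change itself. CD59, which blocks the last step of complement attack, stood at 72.1, 81.5 and 74.6 CPM in EV and 57.4, 52.9 and 43.0 CPM in SH2 (-0.58 ± 0.09). GALNT6, which starts sugar chains on mucin-type proteins, and SLC35D1, a carrier of nucleotide sugars, fell by 0.52 and 0.58 on the log2 scale, each with an SE under 0.10. H6PD, an enzyme of the pentose phosphate route inside the endoplasmic reticulum, fell by 0.51 on the log2 scale, with groups that overlapped.

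Long cytoskeletal or scaffold genes were among the other falls. DST, a giant linker between cytoskeletal filaments, stood at 51.8, 48.6 and 76.7 CPM in EV and 19.8, 34.6 and 41.8 CPM in SH2 (-0.91 ± 0.14), with pairs that ranged from -0.49 to -1.38. FRY, a large scaffold of spindle and polarity kinases, stood at 94.4, 112.7 and 112.7 CPM in EV and 58.7, 87.7 and 66.4 CPM in SH2 (-0.60 ± 0.09). IQGAP2, a scaffold protein of the cytoskeleton, and KIF13B, a kinesin motor, fell by 0.47 and 0.49 on the log2 scale. CERCAM, MACC1, TTC28, TROVE2 and PACS2 were also lower, with log2 fold changes of -0.73, -0.66, -0.60, -0.45 and -0.42. Of the 26 genes that fell, 22 had a transcript of at least 5000 bases, a length reached by 24.3% of the tested genes with a length.

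The change moved with transcript length across the whole transcriptome. The median transcript was 2142 bases long among the genes that rose, 8945 bases among those that fell, and 3126 bases among all tested genes. In 5 classes of equal size, the median log2 fold change went from 0.12 in transcripts of up to 1651 bases through 0.06, 0.02 and -0.03 to -0.12 in transcripts of 5500 bases or more. The same order was present in each pair, and it was steepest in the samples numbered 1 (0.22 to -0.18) and flattest in those numbered 13 (0.05 to -0.05). In the 6-sample fit, 453 genes of the shortest class rose and 39 fell, against 41 and 661 in the longest class. Within a library, log2 CPM rose with log2 length by a slope of 0.37 to 0.40 in EV and 0.29 to 0.34 in SH2, with no overlap between the groups. Whether RNA quality or library preparation had a part in this was not tested. With a correction for length and GC content, 4 genes passed in the 9-sample fit, 3 of them among the 40. In the 6-sample fit 1012 genes rose (7.7%) and 817 fell (6.22%) under the same correction, and all 40 genes stayed among them.

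**Figure D3:**
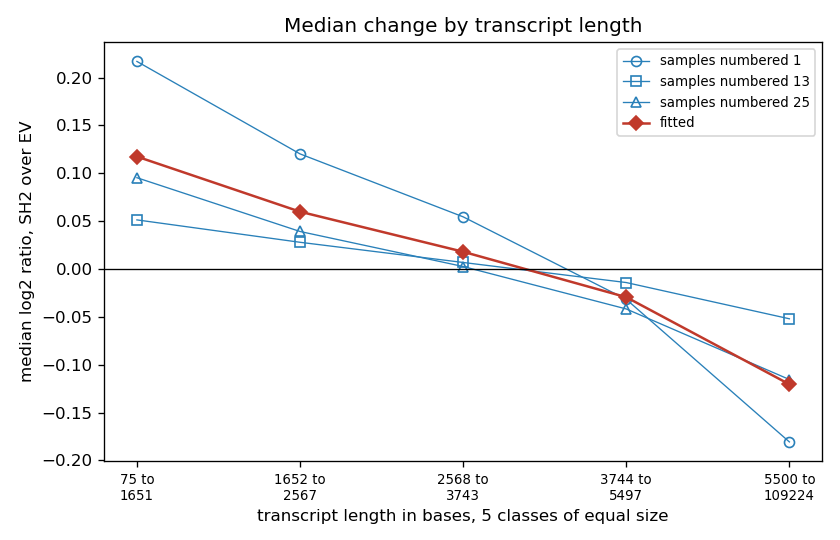
Median log2 ratio of SH2 over EV (y axis) in 5 classes of transcripts ordered by length in bases (x axis). Open symbols are the 3 pairs and red diamonds the fitted values. The fitted median runs from 0.12 in the shortest class to -0.12 in the longest.

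Respiratory chain genes were higher as a group in SH2. These nuclear genes encode the mitochondrial complexes that pass electrons to oxygen and drive ATP synthesis. Of 38 complex I subunits and assembly genes tested, 26 rose (68.4%, against 6.64% of all genes) and none fell in the 6-sample fit. Of the 38 genes, 35 had a log2 fold change above 0. Of 42 genes for complexes II to V, 22 rose (52.4%) and none fell, and all 42 were above 0. The median log2 fold change was 0.23 for complex I and 0.20 for the other complexes, against 0.01 for all tested genes. No gene of either list passed in the 9-sample fit.

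Single subunits had small and even changes. NDUFB4, of complex I, stood at 78.1, 79.1 and 82.2 CPM in EV and 106.5, 97.6 and 102 CPM in SH2, a log2 fold change of 0.35 ± 0.05 (SE, adjusted p = 0.0022 in the 6-sample fit and 0.074 in the 9-sample fit). ATP5I, a membrane subunit of ATP synthase, stood at 56.2, 65.8 and 71.3 CPM in EV and 76.6, 80.3 and 85.7 CPM in SH2 (0.33 ± 0.06, adjusted p = 0.0034 and 0.074). In both the groups did not overlap. COX7A2, of cytochrome c oxidase, gave 0.31 ± 0.06 (adjusted p = 0.0079 in the 6-sample fit). The 3 pairs gave complex I medians of 0.35, 0.16 and 0.15, so the samples numbered 1 contributed most. Without the samples numbered 1, 13 and 25 in turn, 17, 26 and 13 of the complex I genes and 9, 28 and 8 of the others rose in the 6-sample fit. Over all genes, 470, 859 and 249 rose in these fits.

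These genes are short, with a median transcript of 691 bases in complex I and 1058 bases in the other complexes. The median of the shortest length class was 0.12, and 453 of its 2662 genes rose in the 6-sample fit. Under the correction for length and GC content the complex I median was 0.16 and that of the other complexes 0.13, against 0.02 for all genes, and 21 and 14 genes rose with none that fell in the corrected 6-sample fit.

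The promoters of the respiratory genes are shown because the list moved together. Windows from 250 bases before to 50 after the transcription start came from RefSeq (GRCh38.p14), which matched 67 of the 80 respiratory genes and 10916 of the 14199 tested genes, the first listed start being used. The following short motifs were searched on both strands: TGTGGT (the RUNX core), CCGGAAG (ETS factors), TGANTCA (AP-1) and CCAAT. The ETS motif was present in 29.9% of the respiratory promoters and 19.3% of all tested promoters, and the RUNX core in 17.9% and 9.7%. It was present in 29.1% of the promoters of genes that rose and 11.4% of those that fell in the 6-sample fit. The RUNX core was present in 8.63% and 9.59% of these 2 groups. Over all tested promoters, CCAAT was present in 36.6% and the AP-1 motif in 4.53%. Of the 10 matched promoters of the genes that rose in the 9-sample fit, 0 held the RUNX core, 0 the AP-1 motif and 6 CCAAT. Of the 22 matched promoters of those that fell, 3 held the RUNX core, 3 the AP-1 motif and 6 CCAAT. In the 6-sample fit CCAAT was present in 36.0% of the promoters of rises and 31.8% of those of falls. A match says only that the letters are present. Printed below are the 150 bases before the start of PRDX3, the rise with the smallest p, in which none of the motifs was found, of TROVE2, the fall with the smallest p that held an AP-1 motif in these bases, and of 3 respiratory genes with an ETS motif there, NDUFB7, COX6A1 and COX8A. Capitals mark the motifs on either strand.
PRDX3 (chr10:119178813-119178962, minus strand): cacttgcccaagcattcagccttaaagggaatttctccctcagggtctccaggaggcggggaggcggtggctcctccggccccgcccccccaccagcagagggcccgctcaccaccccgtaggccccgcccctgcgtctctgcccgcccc
TROVE2 (chr1:193059462-193059611, plus strand): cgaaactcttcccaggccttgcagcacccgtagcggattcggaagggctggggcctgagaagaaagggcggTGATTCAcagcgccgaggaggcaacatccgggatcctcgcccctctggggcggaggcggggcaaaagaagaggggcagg
NDUFB7 (chr19:14572067-14572216, minus strand): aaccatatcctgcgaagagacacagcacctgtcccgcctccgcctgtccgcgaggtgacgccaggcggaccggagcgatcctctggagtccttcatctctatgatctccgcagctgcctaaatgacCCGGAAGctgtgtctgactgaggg
COX6A1 (chr12:120437963-120438112, plus strand): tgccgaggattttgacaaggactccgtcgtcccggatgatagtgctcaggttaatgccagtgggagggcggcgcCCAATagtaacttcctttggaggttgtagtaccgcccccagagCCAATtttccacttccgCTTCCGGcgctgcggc
COX8A (chr11:63974470-63974619, plus strand): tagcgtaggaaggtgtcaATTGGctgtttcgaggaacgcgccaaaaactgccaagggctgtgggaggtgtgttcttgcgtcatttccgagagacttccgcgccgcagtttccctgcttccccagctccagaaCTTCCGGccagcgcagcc

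The first base of the ETS motif lay 24, 16 and 18 bases before the start of NDUFB7, COX6A1 and COX8A, and in COX6A1 and COX8A it reads CTTCCGG because it is on the other strand. The 3 genes had log2 fold changes of 0.30, 0.31 and 0.28 in the 6-sample fit, with adjusted p values of 0.0069, 0.0072 and 0.014.

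Other mitochondrial genes moved with the respiratory chain. Of 76 mitochondrial ribosomal proteins, 34 rose (44.7%, against 6.64% of all genes) and 1 fell in the 6-sample fit (median 0.18). Of 38 import and chaperone genes 13 rose (34.2%) and none fell (0.13). MRPL24 stood at 39.5, 47.1 and 58.8 CPM in EV and 56.3, 59.6 and 70.5 CPM in SH2 (0.37 ± 0.06, adjusted p = 0.0027 in the 6-sample fit). TIMM10, a chaperone for proteins on the way to the inner membrane, gave 0.34 ± 0.06 (adjusted p = 0.0050). Without the samples numbered 1, 13 and 25 in turn, 20, 36 and 11 mitochondrial ribosomal and 7, 11 and 5 import genes rose. Under the correction, 24 mitochondrial ribosomal and 13 import genes rose in the 6-sample fit. Enzymes of the tricarboxylic acid cycle had a median of 0.10. In the 6-sample fit 4 of 22 rose (18.2%, against 6.64% of all genes), or 1, 2 and 1 without each pair in the same order.

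The proteasome and the antioxidant genes were higher too. Of 45 proteasome genes, 24 rose (53.3%, against 6.64% of all genes) and none fell in the 6-sample fit. Their median was 0.19, with 44 of them above 0. PSMB2, a catalytic subunit of the core, stood at 92.4, 131 and 164 CPM in EV and 128, 159 and 188 CPM in SH2 (0.31 ± 0.06, adjusted p = 0.0056). Because the EV samples themselves spread this widely, the groups overlapped, and the increase was visible only pair by pair. Of 30 glutathione and NRF2 genes, 13 rose (43.3%) and none fell (median 0.19). NQO1, a quinone reductase and classical NRF2 target, stood at 16.9, 33.0 and 47.8 CPM in EV and 26.9, 53.8 and 61.0 CPM in SH2 (0.56 ± 0.07, adjusted p = 0.00054 in the 6-sample fit and 0.074 in the 9-sample fit). GSS, glutathione synthetase, stood at 78.0, 85.1 and 87.9 CPM in EV and 93.2, 104 and 103 CPM in SH2 (0.25 ± 0.05, adjusted p = 0.0086). In the corrected 6-sample fit 18 proteasome genes and 8 antioxidant genes rose. Without the samples numbered 1, 13 and 25 in turn, 10, 16 and 7 proteasome genes and 5, 13 and 3 antioxidant genes rose.

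Amino acid and iron genes showed smaller shares. Of 26 genes of the ATF4 and amino acid response, 9 rose (34.6%, against 6.64% of all genes) and none fell (median 0.14). Among the rises was SLC3A2, the heavy chain of several amino acid carriers (0.27 ± 0.06, adjusted p = 0.012). Of 30 iron and haem genes, 8 rose (26.7%) and none fell (median 0.07), TFR2 and FTL, the light chain of ferritin, included. FTL stood at 1557, 1891 and 2018 CPM in EV and 2114, 2391 and 2282 CPM in SH2 (0.32 ± 0.09, adjusted p = 0.026). The rises numbered 6, 6 and 4 for ATF4 and 4, 6 and 3 for iron without the samples numbered 1, 13 and 25 in turn. The cytosolic ribosomal proteins, also short with a median of 827 bases, had no member of 78 that passed in the 6-sample fit. Their medians in the 3 pairs were 0.24, -0.12 and 0.07, and the corrected median was 0.00066.

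**Figure D4:**
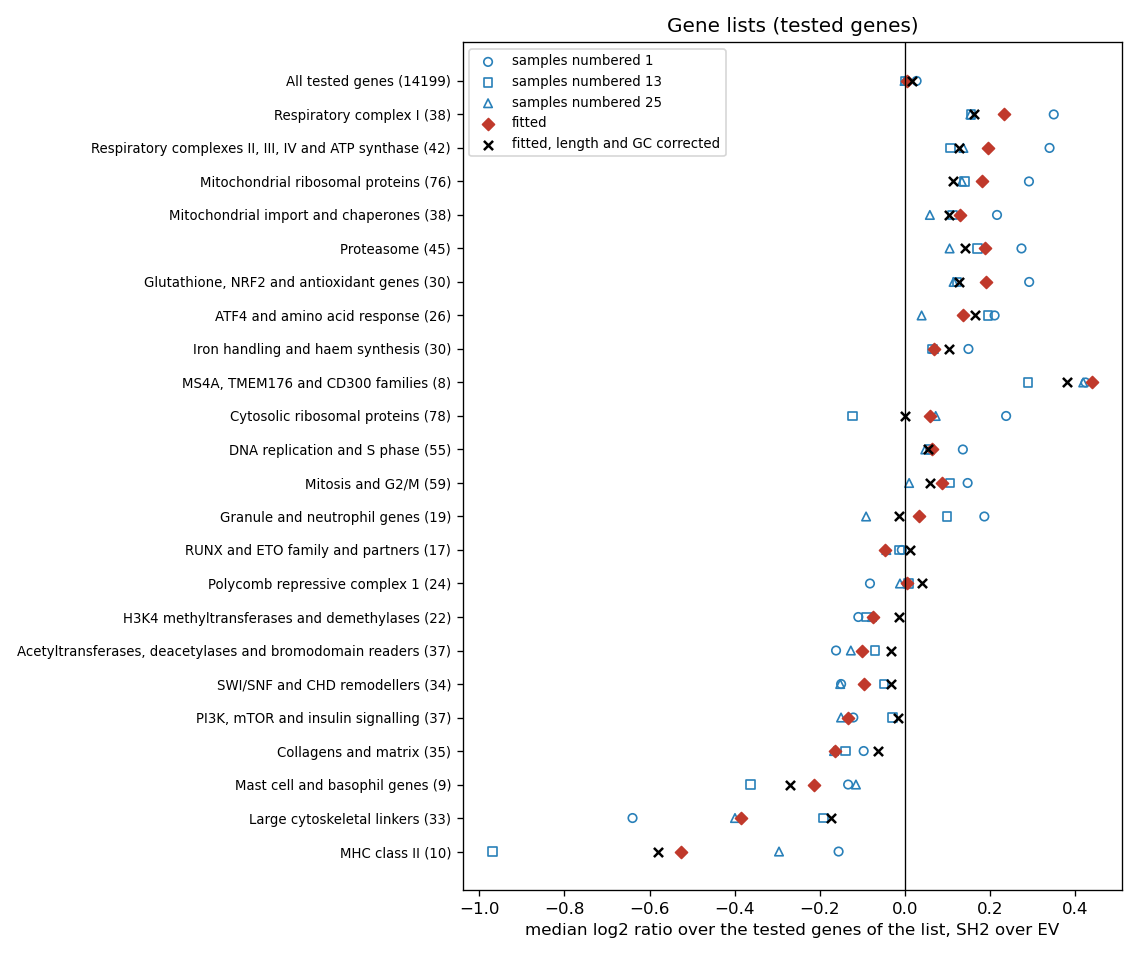
Median log2 ratio of SH2 over EV (x axis) over the tested genes of 23 gene lists and of all tested genes (y axis, number of genes in brackets). Open symbols are the 3 pairs, diamonds the 9-sample fit and crosses the same fit with the length and GC correction. Complex I lies at 0.23 and large cytoskeletal linkers at -0.38, with corrected medians of 0.16 and -0.17.

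Several lists of chromatin regulators held more falls than rises. Of 22 H3K4 methyltransferase and demethylase genes, 10 fell (45.45%, against 8.35% of all genes) and 1 rose in the 6-sample fit (median -0.07). Of 37 acetyltransferases, deacetylases and bromodomain readers 11 fell (29.7%) and none rose (-0.10). Of 34 SWI/SNF and CHD remodellers 14 fell (41.2%) and 1 rose (-0.10). KMT2D, the closest relative of KMT2C, stood at 384, 322 and 402 CPM in EV and 166, 267 and 262 CPM in SH2 (-0.70 ± 0.12, adjusted p = 0.0045). KDM5C, which removes methyl groups from H3 lysine 4, stood at 174, 183 and 181 CPM in EV and 139, 134 and 128 CPM in SH2 (-0.43 ± 0.06, adjusted p = 0.00073). The groups did not overlap in either gene. ARID1A, a SWI/SNF subunit, stood at 254, 232 and 235 CPM in EV and 175, 193 and 169 CPM in SH2 (-0.43 ± 0.06, adjusted p = 0.0017), and CHD3 and the acetyltransferase EP300 gave -0.43 ± 0.06 and -0.40 ± 0.08.

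Without the samples numbered 1, 13 and 25 in turn, 8, 9 and 7 H3K4 genes fell, 7, 13 and 9 of the acetylation list and 9, 14 and 9 of the remodellers. These chromatin genes are long, with list medians between 5661 and 6360 bases. In the longest length class, of 5500 bases or more, the median change was -0.12, and 661 of 2660 genes fell in the 6-sample fit. The chromatin list medians were thus no lower than that of long transcripts as a class. Their corrected medians were -0.01 for the H3K4 list and -0.03 for the other lists, against 0.02 for all genes. In the corrected 6-sample fit 5 genes of each list fell, and 0, 3 and 2 rose. KMT2C, KMT2D, KDM5C, BPTF, ARID1A, CHD3 and EP300 were lower with an adjusted p under the threshold in that fit too. Polycomb complexes had medians of 0.03 (complex 2) and 0.01 (complex 1). In the 6-sample fit 1 of 13 complex 2 genes fell (7.69%), near the 8.35% of all genes, and 5 of 23 complex 1 genes (21.7%). None rose, and 4, 3 and 2 complex 1 genes fell without each pair in the same order. In the corrected 6-sample fit 1 complex 1 gene fell and 1 complex 2 gene rose. Of 16 DNA methylation genes 3 fell (18.75%, against 8.35% of all genes), TET1, TET2 and TET3. The 1 that rose was IDH2, a mitochondrial isocitrate dehydrogenase (6.25%, near the 6.64% of all genes). In the corrected 6-sample fit 1 fell and 4 rose, and TET2 (adjusted p = 0.13) and TET3 (adjusted p = 0.32) did not pass. TET1 stood at 45.4, 27.9 and 30.2 CPM in EV and 26.2, 23.1 and 22.4 CPM in SH2 (-0.51 ± 0.09, adjusted p = 0.0039).

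Partners of RUNX1 and of the fusion were measured as a list. Of 17 genes of the RUNX and ETO families and their partners, 4 fell (23.5%, against 8.35% of all genes) and none rose in the 6-sample fit, among them the corepressor NCOR1 (-0.33 ± 0.06). Without the samples numbered 1, 13 and 25 in turn, 2, 3 and 1 fell, and in the corrected 6-sample fit 1 rose and 1 fell. Of 16 genes typical of leukaemias with this fusion, 2 rose and 2 fell (median -0.0031). TRH, the thyrotropin-releasing hormone gene that such leukaemias express, stood at 66.7, 25.8 and 13.2 CPM in EV and 77.7, 39.2 and 17.9 CPM in SH2. It was higher in every pair (0.40 ± 0.08, adjusted p = 0.0057 in the 6-sample fit), although the pairs themselves spanned a wide range. HOX genes and MEIS1, which mark another class of myeloid leukaemia, were nearly silent: 31 of 40 had no count in the 6 libraries and the highest count was 4.

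Notch pathway genes were taken as a list. Of 31 tested, HES6 rose and NOTCH2 fell in the 9-sample fit. In the 6-sample fit 2 rose (6.45%, against 6.64% of all genes) and 6 fell (19.4%, against 8.35%), with a median of -0.02. The share of rises was thus near that of all genes. SPEN, a corepressor at Notch targets, stood at 213, 204 and 212 CPM in EV and 125, 170 and 152 CPM in SH2 (-0.51 ± 0.08, adjusted p = 0.0026). NOTCH1 stood at 113, 164 and 134 CPM in EV and 72.2, 150 and 99.3 CPM in SH2, with groups that overlapped (-0.40 ± 0.08, adjusted p = 0.0077). In PI3K, mTOR and insulin signalling 10 of 37 genes fell (27.0%) and 2 rose (5.41%), with a median of -0.13. In the corrected fit 2 fell and 3 rose, and without the samples numbered 25 also 2 fell. REL, an NF-kappaB subunit, stood at 44.4, 33.0 and 32.4 CPM in EV and 23.7, 23.6 and 23.1 CPM in SH2 (-0.64 ± 0.08, adjusted p = 0.00076). CXCL8, the neutrophil chemokine, stood at 10.8, 14.1 and 20.1 CPM in EV and 16.6, 22.03 and 39.1 CPM in SH2 (0.75 ± 0.08, adjusted p = 0.000375). Neither passed in the 9-sample fit. Of 24 genes of the NF-kappaB list 1 rose and 1 fell in the 6-sample fit (4.17% each). Of 34 chemokine, cytokine and receptor genes 1 rose (2.94%) and 3 fell (8.82%). Over all genes 6.64% rose and 8.35% fell, so both lists were near or below these shares.

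The large cytoskeletal linkers had the highest share of falls among the lists in the plot of list medians. Spectrins, plakins, dystrophin relatives and other giant proteins make up this list, and some of them, such as VPS13D, are not cytoskeletal linkers. Of 33 tested, 23 fell (69.7%, against 8.35% of all genes) and none rose in the 6-sample fit. In the longest length class 661 of 2660 genes fell. Of the list 32 were below 0, and DST and IQGAP2 fell in the 9-sample fit as well (median -0.38). HERC1 stood at 111, 97.1 and 105 CPM in EV and 59.8, 80.8 and 74.0 CPM in SH2 (-0.56 ± 0.09, adjusted p = 0.0031), and VPS13D, a lipid transfer protein, gave -0.55 ± 0.08 (adjusted p = 0.0018). The pair medians were -0.64, -0.19 and -0.40. The median transcript of the list was 13557 bases, the corrected median was -0.17, and 15 genes fell in the corrected 6-sample fit.

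Antigen presentation genes of MHC class II were lower without being long. CIITA, the master activator of these genes, stood at 23.0, 17.9 and 11.1 CPM in EV and 10.6, 7.65 and 6.97 CPM in SH2 (-1.03 ± 0.11, adjusted p = 0.00030 in the 6-sample fit and 0.079 in the 9-sample fit), with no overlap. CD74, the invariant chain, stood at 525, 415 and 263 CPM in EV and 441, 253 and 219 CPM in SH2 (-0.41 ± 0.08, adjusted p = 0.0077). HLA-DRA was low, at 6.27, 6.16 and 3.37 CPM in EV and 4.15, 2.04 and 1.80 CPM in SH2 (-1.01 ± 0.18, adjusted p = 0.0041). Of 17 genes in the list 10 passed the filter on low counts in the 9-sample fit and 9 in the 6-sample fit. In the latter 4 fell (44.4%, against 8.35% of all genes) and none rose. The median was -0.53, and the pairs differed widely, at -0.16, -0.97 and -0.30. The corrected median was -0.58. HLA genes resemble each other closely, so their counts can be split between them.

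Lineage genes moved in both directions. MS4A3, a membrane protein of immature granulocytes, stood at 7.84, 7.11 and 4.94 CPM in EV and 33.5, 12.1 and 27.3 CPM in SH2, a log2 fold change of 1.80 ± 0.21 in the 6-sample fit (adjusted p = 0.00041; 0.066 in the 9-sample fit). TMEM176A, next to TMEM176B on chromosome 7, gave 0.81 ± 0.22 (adjusted p = 0.027), and the libraries do not mark strand, so reads where neighbours overlap cannot be assigned. CSF3R, the G-CSF receptor, stood at 282, 219 and 174 CPM in EV and 234, 141 and 124 CPM in SH2 (-0.46 ± 0.07, adjusted p = 0.0014). PRG2, the major basic protein of eosinophils, stood at 156, 203 and 205 CPM in EV and 279, 339 and 227 CPM in SH2 (0.57 ± 0.10, adjusted p = 0.0036). ITGA2B, the platelet integrin, stood at 107, 109 and 98.0 CPM in EV and 69.2, 55.7 and 68.4 CPM in SH2 (-0.70 ± 0.07, adjusted p = 0.00030). CPA3, the mast cell carboxypeptidase, stood at 31.5, 36.8 and 26.8 CPM in EV and 22.4, 19.6 and 19.6 CPM in SH2 (-0.62 ± 0.08, adjusted p = 0.00096).

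As lists, the 19 tested granule genes had a median of 0.03, the 17 monocyte genes 0.14, the 13 megakaryocyte genes -0.16 and the 9 mast cell genes -0.21. Over all genes 6.64% rose and 8.35% fell in the 6-sample fit. Of 18 granule genes tested in it, 3 rose (16.7%) and 1 fell (5.56%). Of 15 monocyte genes 1 rose (6.67%), near the share of all genes, and of 13 megakaryocyte genes 2 fell (15.4%). Of the mast cell genes 3 fell in the 6-sample fit (33.3%, against 8.35% of all genes), with 4, 3 and 2 that fell without the samples numbered 1, 13 and 25. In the corrected 6-sample fit 5 of them fell, against 6.22% of all genes, with a corrected median of -0.27, and none rose in either fit. GATA1, the erythroid and megakaryocyte factor, was low and higher in all 3 pairs, at 3.08, 2.86 and 2.67 CPM in EV and 5.96, 4.83 and 5.82 CPM in SH2 (0.94 ± 0.14, adjusted p = 0.0015). Of 55 replication genes 7 rose (12.7%, against 6.64% of all genes) and 1 fell in the 6-sample fit (median 0.06), and of 59 mitotic genes 9 rose (15.3%) and 2 fell (0.09). In each list 44 genes lay above 0. The rises numbered 3, 3 and 1 for replication and 3, 8 and 3 for mitosis without the samples numbered 1, 13 and 25 in turn. MKI67, the proliferation marker, stood at 459, 480 and 498 CPM in EV and 291, 438 and 372 CPM in SH2 (-0.41 ± 0.09, adjusted p = 0.0097), its transcript is 12716 bases long, and it did not pass in the corrected 6-sample fit (adjusted p = 0.064). Of 28 p53 targets 7 fell (25%) and 2 rose (7.14%), and 3 fell without the samples numbered 13 or 25. CDKN1A, the inhibitor of cyclin-dependent kinases, gave -0.45 ± 0.08 (adjusted p = 0.0045).

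The last question was where the 2 hairpins differed. The difference itself, SH3 minus SH2, passed the threshold in 15 of the 14199 genes (0.106%), in the 9-sample fit. Of the 40 genes above, 38 had the same sign under SH3, and 3 were among the 15: CERCAM, MACC1 and PTGER4. CERCAM, a protein of cell adhesion, stood at 48.4, 47.6 and 45.3 CPM in EV, 36.9, 27.6 and 22.3 CPM in SH2 and 73.9, 61.9 and 49.0 CPM in SH3. It was thus below EV with SH2 and above EV with SH3, and the difference was 1.10 ± 0.11 (SE, adjusted p = 0.011). MACC1, a regulator of MET signalling, stood at 17.3, 13.6 and 13.4 CPM in EV, 12.4, 8.43 and 7.56 CPM in SH2 and 21.6, 14.1 and 14.4 CPM in SH3 (0.82 ± 0.10, adjusted p = 0.027). For PTGER4 the difference was 0.57 ± 0.09 (adjusted p = 0.048). NOTCH2 fell with SH2 and gave -0.12 with SH3, but the difference of 0.43 did not pass (adjusted p = 0.088).

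Other differing genes did not pass for SH2 against EV in the 9-sample fit. MDK, the growth factor midkine, stood at 37.1, 36.6 and 31.7 CPM in EV, 55.2, 39.5 and 46.1 CPM in SH2 and 32.0, 27.9 and 27.8 CPM in SH3 (-0.68 ± 0.09, adjusted p = 0.036). TIMP3, an inhibitor of matrix proteases, stood at 10.4, 14.5 and 11.8 CPM in EV, 16.2, 19.02 and 16.95 CPM in SH2 and 7.70, 10.7 and 4.33 CPM in SH3 (-1.24 ± 0.19, adjusted p = 0.048). In both genes the SH2 samples lay above all EV and all SH3 samples. FAM65C was near the detection limit, at 0.91, 0.54 and 0.57 CPM in EV, 1.64, 0.53 and 1.14 CPM in SH2 and 0.14, 0.12 and 0.11 CPM in SH3 (-3.07 ± 0.38, adjusted p = 0.027). CA9, a carbonic anhydrase induced by low oxygen, rested on 1 library, with 13.1 CPM in the SH3 sample numbered 1 and at most 1.14 CPM elsewhere.

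**Figure D5:**
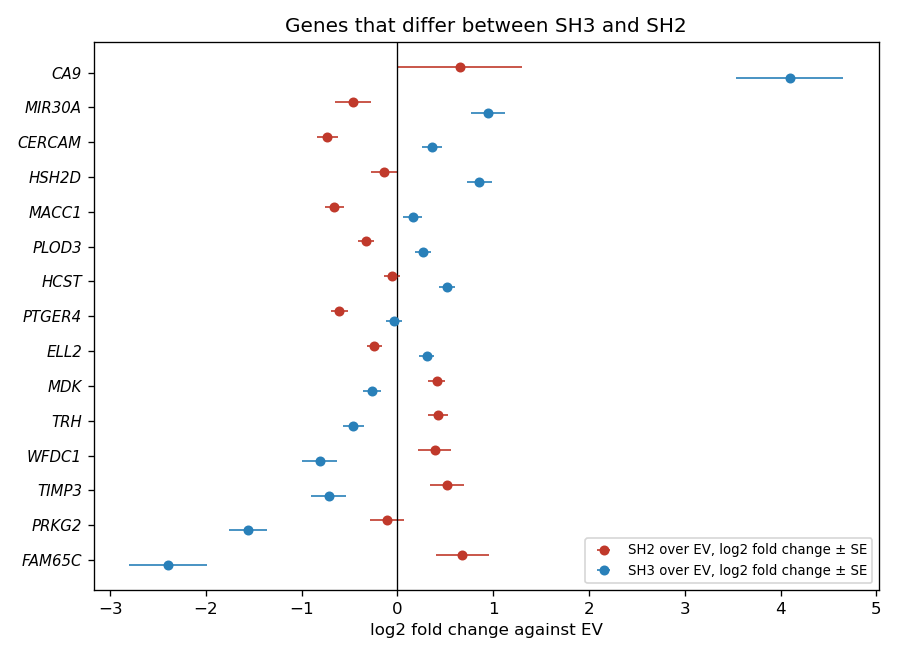
Log2 fold change against EV with its standard error (x axis) for SH2 and SH3 in the 15 genes where the hairpins differed (y axis). Both hairpins share the 3 EV samples. CERCAM lies at -0.73 for SH2 and 0.36 for SH3.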

How the data were processed

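Poly(A)-selected, unstranded libraries were sequenced by the authors; the submitters' processing notes name hg19, STAR, featureCounts and DESeq2, with no versions. The deposited values are whole-number counts per RefSeq transcript, not normalized, in 48104 rows per sample. Rows of 1 gene share reads, so each of 25680 symbols was represented by its row with the highest total over the 9 samples. Genes were kept by filterByExpr (minimum count 10), which left 14199. Counts were scaled by TMM and tested in edgeR 4.0.16 (R 4.3.3) by the quasi-likelihood F test over all 9 samples with the sample number as a block, with Benjamini-Hochberg adjustment and a threshold of 0.05. The pairing by number was set beforehand. Deviations of same-numbered SH2 and EV samples from their group means correlated at 0.681, 0.400 and 0.681, while different numbers gave -0.606 to 0.0311. Deviations cancel within each group, so different numbers are drawn to negative values where same numbers correlate. Standard errors are the log2 fold change divided by the square root of F. No pair of replicates agreed within sampling noise (chi-square per degree of freedom 17.6 to 53.3). The study states biological replicates; whether they were separate cultures is not stated, so p values measure the spread between these samples. Transcript lengths, GC content and coordinates came from GENCODE on GRCh37, for 13299 tested genes.

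Gene lists and members were chosen with earlier results of these data known. Named genes are ASXL2; the 15 largest rises and falls past the threshold with all pairs on 1 side; up to 10 genes by p that differ between SH3 and SH2; 6 genes of the study's question; and up to 4 genes of smallest p per list. SLC35D1, GALNT6, FURIN, TROVE2, PACS2, NOTCH2NL, COX8A and, for SH3 minus SH2, TIMP3, CA9, ELL2 and WFDC1 were chosen after their values were seen. The fits were tested on simulated data. Alternatives were the fit without the block, SH2 and EV alone, DESeq2, other scaling and filters, summed rows, a length and GC correction, and each replicate left out. A count of 0 allows up to 0.0847 to 0.106 CPM (3 counts); such limits cover counting error only. Some genes are not reported here.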

Additional observations from a re-analysis of the deposited data

Results flagged for a closer look

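The effects of the hairpins differed by a test of the difference itself (SH3 minus SH2, log2 scale, edgeR's quasi-likelihood test with Benjamini-Hochberg adjustment) in 15 genes. Higher with SH3 were CERCAM (1.10), MACC1 (0.82), MIR30A (1.41, the row of the precursor gene), HSH2D (0.99), PLOD3 (0.60), HCST (0.58), ELL2 (0.55), CA9 (3.44) and PTGER4 (0.57). Lower with SH3 were TRH (-0.88), FAM65C (-3.07), MDK (-0.68), PRKG2 (-1.45), TIMP3 (-1.24) and WFDC1 (-1.20). Adjusted p values ran from 0.011 to 0.048. Groups of 3 are too small for a test of single outlying samples.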

How the results depend on the processing

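The number of genes that passed for SH2 against EV was 40. It was 0 without the replicate block, 2097 with SH2 and EV alone, 307 without the low-count filter, 369 with DESeq2, 4 with summed RefSeq rows and 4 with the length and GC correction. Settings chosen after seeing the data gave 0 (SH2 and EV alone, no block), 1829 (SH2 and EV alone, corrected) and 1369, 2036 and 780 (SH2 and EV alone, without the samples numbered 1, 13 and 25). Without 1 replicate or 1 SH2 or EV library of the 9-sample fit it ranged from 0 to 267. No SH3 library was left out on its own. Leaving out the samples numbered 25, the SH2 sample numbered 1 or that numbered 25 left 0. Leaving out the samples numbered 1 gave 267. Each of the other removals (the samples numbered 13, the SH2 sample numbered 13 or any EV sample) left 2 to 9. All 40 genes kept their sign in every setting. The cause was not tested.

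The number that passed for SH3 minus SH2 was 15. It was 0 without the block, 162 without the filter, 155 with DESeq2, 6 with summed rows and 8 with the correction. Without 1 replicate or 1 SH2 or EV library it ranged from 0 to 129. Here too no SH3 library was left out on its own, although SH3 is a side of this comparison. The number was 0 without the samples numbered 25 or the SH2 sample numbered 25, and 1 without another SH2 sample or the EV sample numbered 25. It was 129, 61 and 25 without the samples numbered 1, those numbered 13 and the EV sample numbered 1. The log2 fold change of ASXL2 was -1.03 without the block (adjusted p = 0.81), and -1.04 with SH2 and EV alone and no block (adjusted p = 0.072). It ranged from -1.13 to -0.96 without 1 replicate or 1 SH2 or EV library. It missed the threshold without the samples numbered 25, without the SH2 sample numbered 1 and without that numbered 25.

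ASXL1 turned to 0.0092 and 0.011 with the correction (9-sample and 6-sample fits). BAP1 ranged from -0.0091 to 0.049 without 1 replicate or 1 SH2 or EV library. It was below 0 without the samples numbered 13, the SH2 sample numbered 1 or the EV sample numbered 13. With SH2 and EV alone, without the samples numbered 13, it was -0.011. The medians of the respiratory chain and proteasome lists stayed above 0 in every setting (0.14 to 0.27 and 0.11 to 0.24), and those of the large linkers and MHC class II below 0 (-0.54 to -0.17 and -0.81 to -0.22).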
